A study of Mus musculus with 73 samples.

Results

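The 10 genes described here encode transcription factors and early response proteins and were measured in mouse jejunal epithelium. They were chosen by name: *Fos*, *Fosb*, *Jun*, *Junb*, *Jund*, *Egr1*, *Atf3*, *Ier2*, *Klf4* and *Klf6*. All 10 were listed among the 17399 genes of the bulk epithelium and among the 21058 genes of the single-cell data. The study asked which signals *Lgr5*+ telocytes, stromal cells under the villus tip, give to the epithelium above them. Bulk epithelium was detached with EDTA from the jejunum of male Lgr5(GFP-ires-DTR/+) mice, 48 h after 50 µg/kg diphtheria toxin (DT, 4 mice) or saline vehicle (control, 4 mice). Control and DT mice alike carried the toxin receptor on 1 *Lgr5* allele, so any cell that uses *Lgr5*, including crypt stem cells, could be hit by the toxin, and the mice were 4 months old. Single cells came from 8 male C57BL/6 mice of 3 months, sorted into plates by 11 gates, and laser-capture microdissected (LCM) stroma from 5 further mice of this strain and age.

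Fos, Fosb, Jun, Junb and Jund proteins form the dimers of AP-1, a factor that binds DNA after growth factor, cytokine or stress signals, and Atf3 can join such dimers. The genes of *Fos*, *Fosb*, *Jun*, *Junb*, *Egr1*, *Atf3* and *Ier2* are called immediate early because a cell can start to transcribe them without making new protein first. *Klf4* and *Klf6* encode zinc finger factors, and Klf4 is known in the intestine for its part in the differentiation of villus cells and goblet cells. Handling, enzyme treatment and warming of tissue are also known to switch on immediate early genes.

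The genes lie apart from each other in GRCm38 (GENCODE M21). *Fos* (ENSMUSG00000021250) spans 85473890 to 85477273 on the plus strand of chromosome 12, and *Fosb* 19302696 to 19310051 on the minus strand of chromosome 7. *Jun* spans 95049034 to 95052222 and *Klf4* 55527143 to 55532466, both on the minus strand of chromosome 4. *Junb* and *Ier2* lie on the minus strand of chromosome 8, at 84974484 to 84978718 and 84661331 to 84662852, and *Jund* on its plus strand at 70698949 to 70700616. *Atf3* spans 191170296 to 191218039 on the minus strand of chromosome 1, and *Klf6* 5861482 to 5870394 on the plus strand of chromosome 13.

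The 250 bases before the start site of 8 of the 10 genes were read from RefSeq (GRCm38.p6) and searched on both strands for 6 short motifs, among 32851 promoters of the same length. The promoters of *Fos* and *Klf4* are shown because they hold the most matches among members that differed between the cell classes below. Capitals mark the matches. The *Fos* window is chr12:85473640-85473889, plus strand, and the *Klf4* window is chr4:55532476-55532725, minus strand.
Fos: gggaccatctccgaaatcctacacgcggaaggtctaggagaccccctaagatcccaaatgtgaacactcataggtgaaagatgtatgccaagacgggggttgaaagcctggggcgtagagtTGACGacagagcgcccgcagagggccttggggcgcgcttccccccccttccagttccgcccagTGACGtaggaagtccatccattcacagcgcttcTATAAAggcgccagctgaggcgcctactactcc
Klf4: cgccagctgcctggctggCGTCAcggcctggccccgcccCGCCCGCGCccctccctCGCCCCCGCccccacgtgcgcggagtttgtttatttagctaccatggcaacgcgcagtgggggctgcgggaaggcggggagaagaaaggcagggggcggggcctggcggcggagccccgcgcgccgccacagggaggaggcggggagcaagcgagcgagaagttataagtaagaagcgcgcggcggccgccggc
In *Fos*, the capitals are TGACG, the core of the cyclic AMP response element, at 129 to 125 and at 66 to 62 bases before the start, and TATAAA at 33 to 28 bases before it. In *Klf4* they are TGACG at 232 to 228 bases and the Egr-type site GCGNGGGCG at 211 to 203 and at 194 to 186 bases before the start, each on the opposite strand. TGACG was found in 5 of the 8 members (*Fos*, *Fosb*, *Junb*, *Atf3* and *Klf4*), against 17.8% of all promoters. GCGNGGGCG was found in 2 (*Fosb* and *Klf4*), against 4.70%, and TATAAA in 1, against 12.4%. TGANTCA, a form of the AP-1 site, the full TGACGTCA, which contains TGACG, and the CArG box were found in 0 of the 8, against 6.75%, 1.55% and 1.47% of all promoters. *Jun*, *Jund* and *Klf6* held none of the 6 in this window. Some windows lie away from the GENCODE gene starts. That of *Jund* ends at 70697738, upstream of the gene start at 70698949. That of *Atf3*, 191183334 to 191183583, lies inside the gene, which ends at 191218039.

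The libraries of the bulk epithelium held 748458 to 4210158 UMIs (unique molecular identifiers, each 1 counted transcript). They were made in batch a (replicates 1 and 2) and batch b (replicates 3 and 4). The epithelial markers *Epcam*, *Krt8*, *Vil1* and *Cdh1* summed to 4062 to 5176 CPM (UMIs scaled to 1e6 per library) in controls and 3648 to 4640 in DT. The 6 mesenchymal markers stayed between 0.881 and 17.6 CPM in all libraries, and of the endothelial markers *Cdh5* and *Kdr* were at 0 while *Pecam1* was at 3.27 to 21 CPM in controls and 1.05 to 11.8 in DT (log2 fold change -0.98, edgeR adjusted p = 0.222). Control replicate 2 stood apart, with the fewest UMIs, 13.2% mitochondrial UMIs against 5.14% to 8.45% in the others, and 7585 CPM of heat shock genes against 3311 to 6015. *Lgr5* ranged from 11.2 to 69.5 CPM in controls and from 6.37 to 47.2 in DT, so the groups overlapped.

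In the bulk epithelium 8 of the 10 members had a fold change below 1 after DT, against 49.5% of all 8986 genes tested, and none passed an adjusted p of 0.05 by edgeR's quasi-likelihood test with batch as a term. Over all genes 32 passed (0.356%), 30 of them lower in DT (0.334%). At an unadjusted p under 0.05, 4 members were lower (*Klf4*, *Klf6*, *Jun* and *Fos*), against 8.44% of all genes, and DESeq2 placed *Klf4* alone among the members under an adjusted p of 0.05, lower in DT, as it did 1.27% of all genes. In no member did the 4 DT mice lie wholly below or above the 4 controls, against 1.87% and 1.21% of all genes. The paper counted *Klf4* and *Fos* transcripts by imaging in villus tip enterocytes and reported both as reduced 48 h after DT. It states that bulk sequencing could mask a change at the tip, since both genes have a high basal level along the villus. As a check, *Ada*, a purine enzyme of the villus tip, was lower in DT, with a log2 fold change of -2.06 (95% interval -2.59 to -1.53, edgeR adjusted p = 0.0106), and so was *Nt5e*, with -2.66 (adjusted p = 0.0381). *Slc28a2*, the nucleoside transporter of the same module, had a log2 fold change of -1.61 and missed the threshold (edgeR adjusted p = 0.125). From these same libraries, and with a looser cutoff on adjusted p, the paper names *Ada*, *Nt5e* and *Slc28a2* as strongly reduced. It also reports *Slc28a2* as reduced by imaging at the tip. The check is thus not independent of the paper's result.

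**Figure D1:**
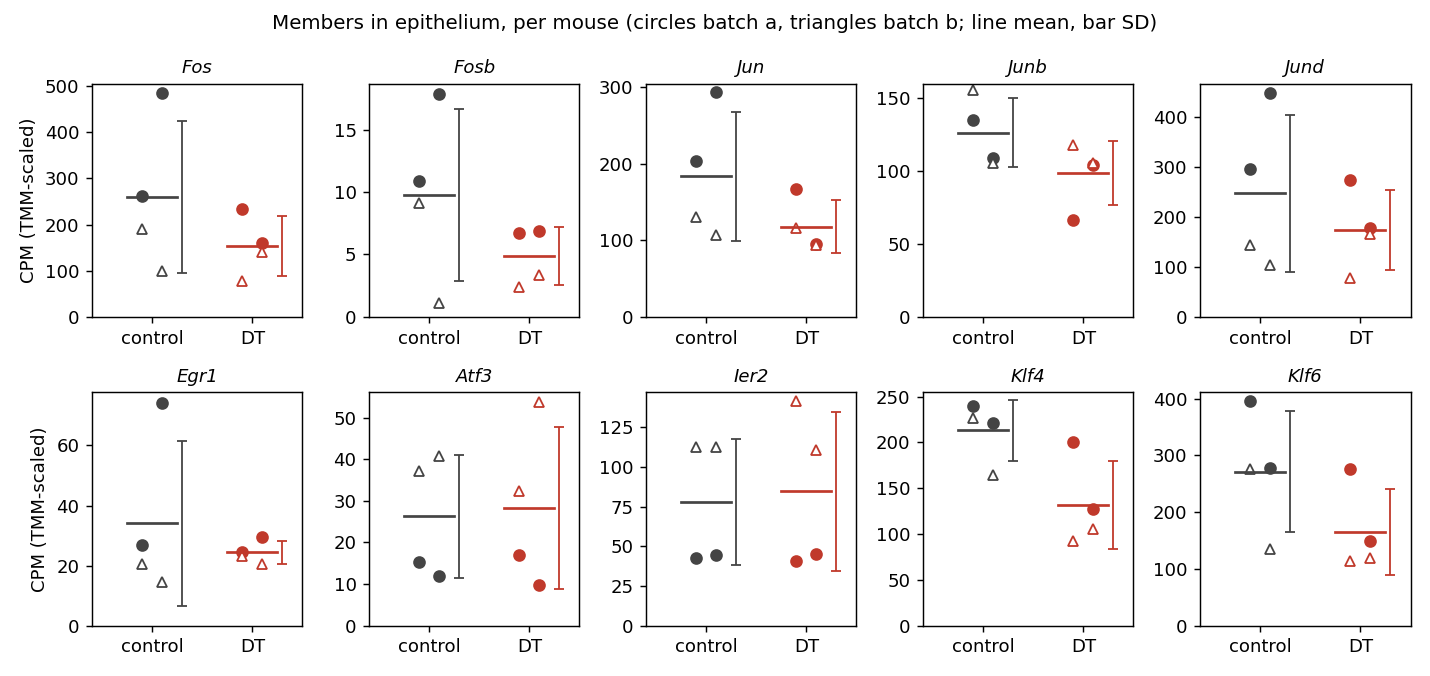
TMM-scaled CPM (vertical axes, from 0) of the 10 members in the bulk epithelium of each control and DT mouse, with the group mean (line) and SD (bar beside it). Circles are batch a and triangles batch b. *Klf4* and *Klf6* have most DT mice below most controls, while *Atf3* and *Ier2* separate by batch rather than by group.

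*Klf4* came closest to the threshold. Its level, scaled by edgeR's TMM factors, was 240.2, 221, 227 and 165 CPM in control replicates 1 to 4 and 201, 127, 92.4 and 106 CPM in DT replicates 1 to 4. Only DT replicate 1 reached into the control range. The means were 213 ± 33.3 CPM (SD, n = 4) and 132 ± 48.3 CPM, and the fitted level in DT was 0.596 of control (95% interval 0.437 to 0.813, log2 fold change -0.75, edgeR adjusted p = 0.190). The DT mean was the lower one in batch a (231 to 164 CPM) and in batch b (196 to 99.2 CPM).

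*Klf6*, a related zinc finger factor, had nearly the same fitted fold change, -0.74 on the log2 scale. It was at 396, 278, 275 and 135 CPM in control replicates 1 to 4 and at 277, 149, 114 and 119 CPM in DT replicates 1 to 4. Here control replicates 3 and 4 lay inside the DT range, and DT replicates 1 and 2 lay inside the control range. The fitted level in DT was 0.597 of control (0.401 to 0.889, edgeR adjusted p = 0.232), with batch means of 337 and 213 CPM in batch a and 205 and 117 CPM in batch b.

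Of the AP-1 genes, *Fos* was at 262, 484, 189.6 and 99.7 CPM in controls and at 235, 159.8, 76.7 and 141 CPM in DT. The groups overlapped widely, and control replicate 2 held the highest value. The means were 259 ± 164 and 153 ± 65.0 CPM (SD, n = 4), and the fitted level in DT was 0.631 of control (0.404 to 0.985, edgeR adjusted p = 0.277). *Jun*, its main partner, was at 203, 294, 131 and 107 CPM in controls and at 167, 94.9, 116 and 94.2 CPM in DT. Its fitted level in DT was 0.686 of control (0.479 to 0.984, edgeR adjusted p = 0.276). The ratio of DT to control means was 0.527 in batch a and 0.884 in batch b for *Jun*, and 0.528 and 0.752 for *Fos*.

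The other 3 AP-1 genes had smaller or less certain differences. *Junb* was at 135, 108, 155 and 105 CPM in controls and at 66.7, 104, 118 and 105 CPM in DT (log2 fold change -0.36, edgeR adjusted p = 0.361). *Jund*, the AP-1 member that most cells keep on, was at 295, 449, 143 and 104 CPM in controls and at 273, 178, 77.2 and 166 CPM in DT (log2 fold change -0.37, edgeR adjusted p = 0.496). Its spread within each group exceeded the difference of the means. *Fosb* rested on 4 to 40 UMIs a library, at 10.9, 17.8, 9.12 and 1.09 CPM in controls and at 6.75, 6.88, 2.36 and 3.36 CPM in DT. Its log2 fold change was -0.95, with an interval from -2.10 to 0.20 that spans no change, and it was -0.30 without control replicate 3 and -1.32 without control replicate 4.

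For *Egr1*, *Atf3* and *Ier2* the group was not where the libraries differed. *Egr1*, a zinc finger factor downstream of growth factor signals, was at 26.9, 74.3, 20.5 and 14.4 CPM in controls and at 24.5, 29.5, 23.1 and 20.6 CPM in DT, and its log2 fold change of -0.20 became 0.21 without control replicate 2. *Atf3*, a stress-induced factor, was at 15.2, 11.9, 37.2 and 40.8 CPM in controls and at 16.9, 9.83, 32.3 and 53.8 CPM in DT. *Ier2*, an early response gene, was at 42.8, 44.6, 112 and 113 CPM in controls and at 40.5, 45.2, 142 and 111 CPM in DT. In both genes all 4 libraries of batch b lay above all 4 of batch a, and the DT intervals, -0.47 to 0.57 and -0.26 to 0.44 on the log2 scale, include no change.

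More members passed the test of batch than that of DT. Batch b differed from batch a in 3779 of the 8986 genes (42.1%) and in 7 of the 10 members. *Atf3* was higher in batch b by 1.61 on the log2 scale (edgeR adjusted p = 0.00116) and *Ier2* by 1.47 (adjusted p = 0.000327). *Jund* (-1.24), *Fos* (-1.11), *Egr1* (-0.87), *Klf6* (-0.79) and *Jun* (-0.69) were lower in batch b, with edgeR adjusted p from 0.00623 to 0.0492. *Fosb*, *Klf4* and *Junb* did not pass (adjusted p = 0.0600, 0.0784 and 0.371). The DT difference itself was not shown to differ between batches. The interaction passed the adjusted threshold in 0 of 8986 genes (0%; 2.48% at an unadjusted p under 0.05, and 9 genes by DESeq2), and the members' unadjusted p ran from 0.0783 (*Egr1*) to 0.941 (*Fosb*).

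Control replicate 2, the library with the most mitochondrial and heat shock UMIs, was also the highest of all 8 for *Fos*, *Fosb*, *Jun*, *Jund* and *Egr1*. Without it the log2 fold change was -0.42 for *Fos*, -0.36 for *Jun* and -0.18 for *Jund*, nearer to 0 in each, and -0.82 for *Klf4* and -0.85 for *Klf6*, further from 0. Markers of other cell types are given beside these values. The tuft markers summed to 24.9 to 48.7 CPM in controls and 3.72 to 7.58 in DT, the Paneth markers to 909.9 to 3268 and 334 to 753, without overlap. The tuft genes *Dclk1* and *Trpm5* and the Paneth gene *Itln1* passed the test. The immune markers, all 9 detected, each had a fold change below 1 in DT, with a median of -0.66 on the log2 scale. Their sums, 900.5 to 2411 and 724 to 1245, overlapped, with 0 of 9 called by edgeR or DESeq2 and 2 lower at an unadjusted p under 0.05. The sums of the 6 goblet markers (4984 to 10390 against 4363 to 5762) overlapped too, with 3 of 6 lower at an unadjusted p under 0.05, 0 called by edgeR and 1 called lower by DESeq2, as did those of the 6 absorptive markers (33262 to 49065 against 33826 to 52870). The part of these markers in the members' values was not tested, and in bulk RNA fewer cells of a type cannot be told apart from less RNA per cell.

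Among related genes, none of the tested members of 4 lists passed in bulk, by edgeR or DESeq2. Of the AP-1 partners (*Fosl2*, *Maf*, *Srf* and others, 10 of 19 tested), 2 had an unadjusted p under 0.05, both lower, and the median log2 fold change was -0.48. Of other early response genes (23 of 38 tested) 4 were lower and 1 higher at that level, with a median of -0.28. Other Klf genes (6 of 15 tested) had 1 lower and a median of -0.15, and heat shock genes (11 of 12 tested) 2 higher and a median of 0.05. The median over the 10 members was -0.46, and over all genes tested it was 0.00.

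The single cells allowed the members to be compared without DT between epithelial cells with and without transcripts of villus tip genes. Position was not measured in these cells, so cells without such transcripts are not placed along the crypt and villus. *Ada*, *Nt5e* and *Slc28a2* mark the villus tip in the study, so cells with an *Epcam* UMI were split by the sum of their UMIs. Of 12346 wells, 2347 cells had 400 to 8000 UMIs and 250 or more genes, and 1215 of these had an *Epcam* UMI. The sum was 0 in 881 cells (zero class), 1 or 2 in 92, and 3 or more in 242 (high class). Mice A, E, G and H had at least 5 cells in both classes, with 286, 36, 184 and 42 zero cells and 132, 7, 74 and 22 high cells. The median depth was 2136 UMIs in the zero class and 1712 in the high class, so the high cells were the shallower ones.

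Of the 10 members, 5 were called higher in tip-gene high cells, each higher in all 4 mice. These were *Atf3*, *Jun*, *Klf4*, *Klf6* and *Fos*. On TMM-scaled levels and with no limit on p, *Junb* and *Jund* were also higher in all 4 mice and *Ier2* in 3. By that same measure 17.5% of all genes tested were higher in every mouse. The paper already names *Fos*, *Jun* and *Klf4* among genes induced in villus tip enterocytes, so for these the direction is not a new result. The 5 members passed an adjusted p of 0.05 by edgeR on UMIs summed per mouse and class with the mouse as a block, as 30.3% of 3457 genes did (14.3% higher, 16.0% lower). Of the 8 members tested none was called lower. *Atf3* passed the filter on low counts only through the high class, with 0 of 4 zero sums at the limit, and *Jun* with 3 of 4, and *Fosb* (36 UMIs) and *Egr1* (42 UMIs) held too few UMIs to be tested. DESeq2 called 5 higher as well, as it did 10.1% of all genes. Over all genes the median log2 fold change was 0.01 on this scale and -0.43 when sums were divided by library totals alone. On totals alone, a scaling added after the data were seen, the 5 members were still called, with log2 fold changes of 1.22 for *Fos*, 1.69 for *Klf6*, 1.76 for *Klf4* and 2.58 for *Jun*. With cells from 200 UMIs and no upper limit, *Fos*, *Jun*, *Klf4* and *Klf6* missed the threshold (log2 fold changes of 0.95, 1.94, 1.42 and 1.36), as did all but 58 genes, and *Atf3* could not be tested. With the same lower limit and at most 8000 UMIs, also added after the data were seen, these 4 passed, with 1.70 for *Fos*, 2.60 for *Jun* and 2.01 for *Klf4*.

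**Figure D2:**
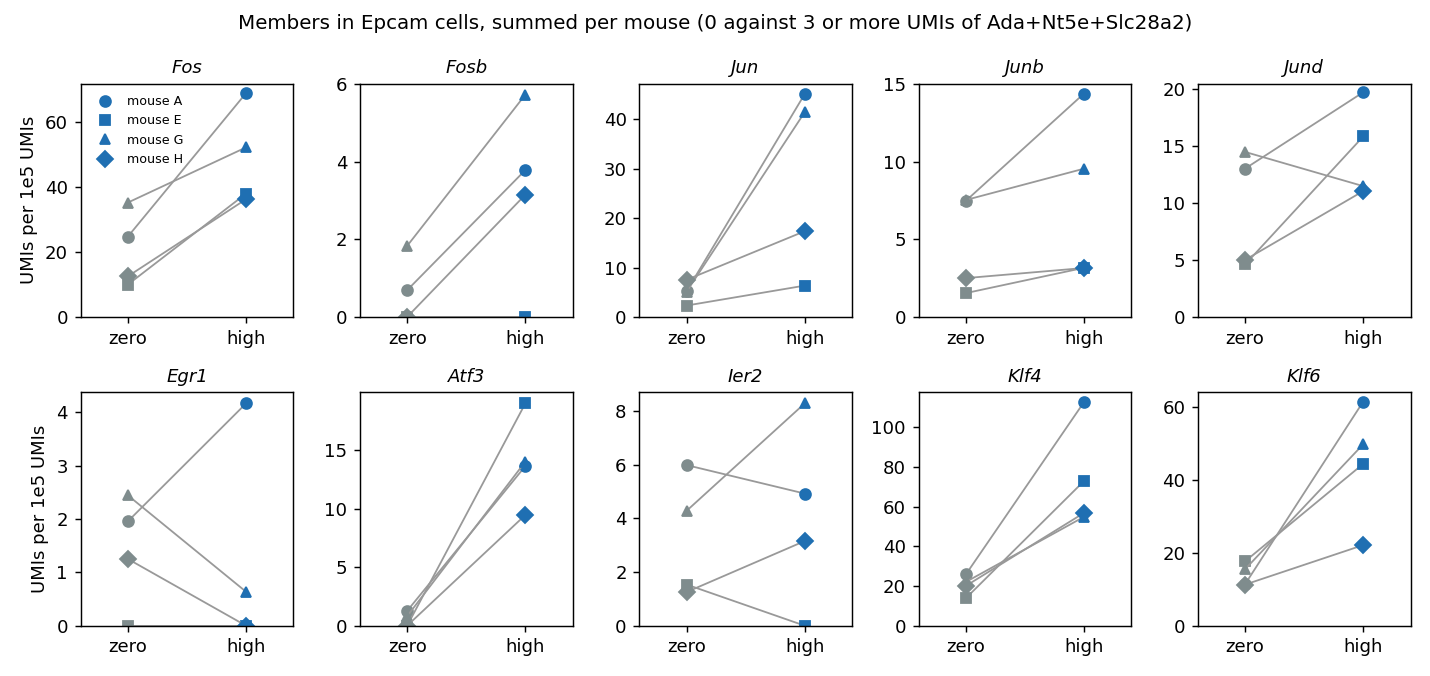
UMIs of each member per 1e5 UMIs (vertical axes, from 0) in the zero and high classes of *Epcam* cells, summed per mouse, with lines joining the classes of mice A, E, G and H. *Fos*, *Jun*, *Atf3*, *Klf4* and *Klf6* go up in every mouse, and *Egr1* and *Ier2* go up in some and down in others.

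*Klf4* was at 25.8, 13.8, 22.0 and 20.0 UMIs per 1e5 in the zero class of mice A, E, G and H, and at 113, 72.8, 54.8 and 56.8 in the high class. The classes did not overlap, nor did those of *Klf6* and *Fos* below, but the share of all genes tested without overlap was not counted. The fitted level, scaled by TMM factors as all folds here are, was 4.53 times higher in the high class (95% interval 3.00 to 6.82, edgeR adjusted p = 4.34e-08). *Klf6* was at 11.4, 17.6, 15.5 and 11.3 in the zero class and 61.4, 44.3, 49.7 and 22.1 in the high class, again without overlap, and 4.32 times higher (2.72 to 6.86, adjusted p = 1.06e-06 by edgeR).

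*Jun* started from a lower level. Its levels were 5.18, 2.30, 5.09 and 7.51 UMIs per 1e5 in zero cells of mice A, E, G and H, and 45.1, 6.33, 41.4 and 17.3 in high cells, so mouse E in the high class lay below mouse H in the zero class. In mouse E *Jun* was counted only 3 times in zero cells and 2 times in high cells. Over the 4 mice *Jun* was 8.50 times higher (4.86 to 14.9, edgeR adjusted p = 1.65e-08). *Fos* was at 24.8, 9.97, 35.3 and 12.5 in zero cells and at 69.0, 38.0, 52.3 and 36.3 in high cells. Each high value lay above each zero value, though narrowly (36.3 in mouse H against 35.3 in mouse G). It was 3.15 times higher (2.04 to 4.85, edgeR adjusted p = 2.81e-05).

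*Atf3* rested on few UMIs in the zero class. In zero cells it was counted 11, 0, 4 and 0 times in mice A, E, G and H, or 1.27, 0, 0.815 and 0 per 1e5. In high cells it was counted 36, 6, 22 and 6 times, or 13.6, 19.0, 14.0 and 9.46 per 1e5. The high class was above the zero class in each mouse, by 10.8 times in mouse A and 17.2 times in mouse G, and no ratio is given for mice E and H, which were at 0. With no filter on low counts the edgeR adjusted p of *Atf3* was 3.48e-09, from the same few zero-class UMIs.

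The remaining AP-1 genes and *Ier2* did not pass. *Junb* was at 7.49, 1.53, 7.54 and 2.50 in zero cells and 14.4, 3.17, 9.56 and 3.15 in high cells, higher in each mouse by a small step (log2 fold change 1.11, interval 0.11 to 2.11, edgeR adjusted p = 0.0846). The step rests on 2 UMIs in zero and 1 in high cells in mouse E, and on 2 and 2 in mouse H. *Jund* was at 13.0, 4.60, 14.5 and 5.01 and at 19.7, 15.8, 11.5 and 11, and on totals it was lower in the high class of mouse G (log2 fold change 0.93, edgeR adjusted p = 0.0923). *Ier2* was at 5.99, 1.53, 4.28 and 1.25 and at 4.93, 0, 8.28 and 3.15, higher on totals in 2 of 4 mice (log2 fold change 0.75, interval -0.41 to 1.91, edgeR adjusted p = 0.352). *Egr1* gave no such pattern either, with 17, 0, 12 and 1 UMIs in zero cells and 11, 0, 1 and 0 in high cells. *Fosb* was at 0.691, 0, 1.83 and 0 per 1e5 in zero cells and 3.79, 0, 5.74 and 3.15 in high cells.

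The share of cells with at least 1 UMI need not follow the sums within a mouse. In mouse G *Fos* was seen in 42.9% of zero cells and 43.2% of high cells. Mice B, C, D and F, which are not in the fit, gave 89, 57, 8 and 179 zero cells but only 0, 3, 0 and 4 high cells. The shares that follow are pooled over the cells of all 8 mice. *Klf4* was seen in 28.8% of zero cells (exact binomial interval 25.9 to 31.9, for counting error only) and 69.0% of high cells (62.8 to 74.8). After thinning each cell to 400 UMIs the shares were 8.14% and 28.0%. For *Fos* they were 33.3% and 121 of 242 cells, or 9.28% and 18.4% after thinning. For *Jun* they were 11.1% and 41.3%, or 2.70% and 14.9% after thinning, and for *Klf6* 20.0% and 50.8%, or 4.36% and 18.9%. *Atf3* was seen in 2.27% of zero and 16.5% of high cells. *Junb* (14.4% and 16.5%), *Jund* (24.1% and 26.0%), *Ier2* (9.88% and 9.09%) and *Egr1* (6.47% and 4.55%) had overlapping intervals. A high cell held a UMI of 2.90 of the 10 members on average and a zero cell of 1.52, or 1.01 and 0.368 at 400 UMIs.

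Finer bins of the tip-gene sum gave the levels between the classes. Over the 881 cells with no tip-gene UMI, 92 with 1 or 2, 43 with 3 to 5 and 199 with 6 or more, *Klf4* was at 21.8, 37.8, 63.5 and 90.7 UMIs per 1e5. *Klf6* was at 11.9, 16.6, 34 and 55.6, and *Jun* at 6.07, 11.3, 23.9 and 41.1, so these 3 had a higher level at each step. *Fos* was at 24.5, 27.9, 65.3 and 58.2 and had its step at 3 UMIs. *Atf3* was at 1.18, 4.94, 4.60 and 15.4. These are sums over the cells of all mice, with no test between the bins, and single mice need not follow them. In mouse G, *Klf4* was at 22.0, 64.9, 39.6 and 57.0 in the 4 bins, with 9 cells in the third, and in mouse A at 25.8, 32.3, 75.8 and 125.

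**Figure D3:**
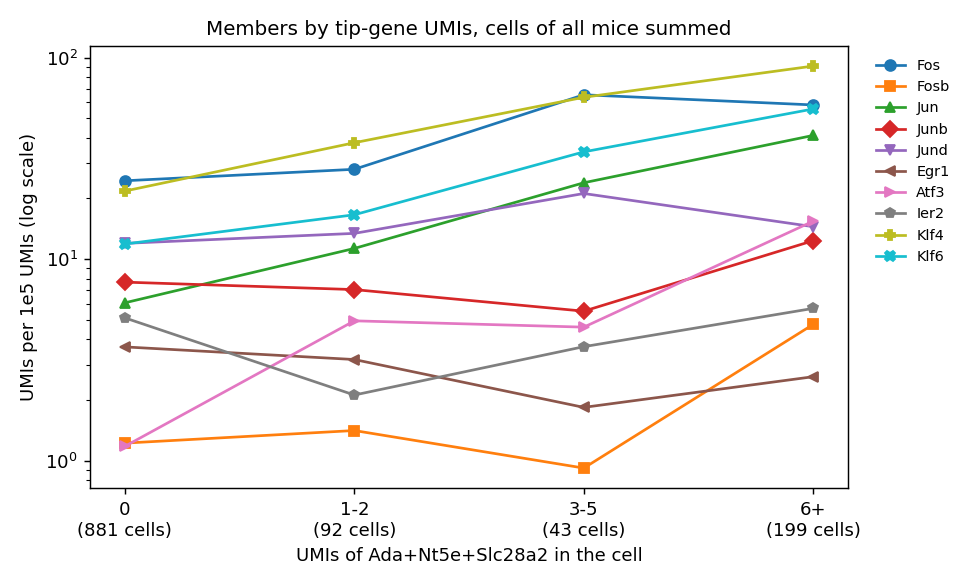
UMIs per 1e5 UMIs of each member (log scale) in *Epcam* cells grouped by their UMIs of *Ada*, *Nt5e* and *Slc28a2* together, with cells of all mice summed and the number of cells under each group. *Klf4*, *Klf6* and *Jun* are higher at each step, and *Egr1* and *Junb* are not.

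The classes did not come from the same gates. Of the high cells 18.6% came from CD45 plates and 42.1% from EPCAM and PDGFRa doublet plates, against 0.568% and 20.8% of the zero cells, while PDGFRa singlet plates gave 19.0% and 34.8%. PDGFRa singlet plates labelled Pop3, from mice B and F outside the fit, gave 1.65% of the high and 29.1% of the zero cells. In mouse G, 45 of 74 high cells but 5 of 184 zero cells came from the CD45 gate. Within mouse A, EPCAM and PDGFRa doublet plates gave *Klf4* at 29.2 per 1e5 in zero and 113 in high cells, and PDGFRa singlet plates 15.7 and 109. Within mouse G, PDGFRa singlet plates gave *Jun* at 5.25 and 41.8. EPCAM singlet plates of mouse H gave *Fos* at 14.9 and 35.2 but *Klf6* at 17.0 and 18.5. With mouse and gate together as the block (added after the data were seen), *Fos*, *Jun*, *Klf4* and *Klf6* kept log2 fold changes of 1.76, 3.24, 2.36 and 2.47, and *Junb* (1.60, edgeR adjusted p = 0.00408) and *Jund* (1.07, adjusted p = 0.0235) passed as well. The 6 blocks of this fit came from mice A, G and H alone, and gates of mice A and G counted as separate blocks. Its p-values therefore do not have the mouse as the replicate, and with the mouse as the block *Junb* and *Jund* did not pass. On the PDGFRa singlet plates alone only mice A and G had enough cells in both classes, with 15 and 28 high cells. There *Fos* missed the threshold (log2 fold change 1.29, edgeR adjusted p = 0.0717) and *Jun*, *Atf3*, *Klf4* and *Klf6* passed.

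Markers of other cells were counted in both classes. In the high class the 6 mesenchymal markers summed to 2.42 UMIs per 1e5 against 8.21 in the zero class, with *Col1a1* and *Col3a1* at 0 and *Dcn* lower by the test, and the 9 immune markers to 116 in each. Of these *Cd74*, an antigen presentation gene that epithelium can also use, held 111 in the zero and 113 in the high class, *Gzma* 2.40 and 1.68, *Ptprc* and *Cd3g* 1 UMI each in the high class, and the other 5 were at 0 there. The absorptive markers were higher as a sum (7536 against 3593) but split, with *Apoa4*, *Alpi* and *Apoa1* higher and *Sis* and *Fabp1* lower. Mitochondrial UMIs were at 6686 to 10275 per 1e5 in the high class of the 4 mice and 2943 to 6603 in the zero class, each mouse higher in its high class. Goblet marker sums differed among mice, from 8.62 to 659 in high and 3.87 to 277 in zero cells. The heat shock genes went the other way, from 187 UMIs per 1e5 in the zero class to 89.8 in the high class. The part of the mitochondrial and absorptive levels in the members' difference was not tested. Among absorptive cells only (3 or more UMIs of 5 absorptive markers), *Klf4* had a log2 fold change of 2.11, *Fos* of 1.59 and *Jun* of 3.12, each past the threshold.

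Of 12 other early response genes tested, 7 were higher, 0 lower and 5 not called by edgeR (6 higher by DESeq2), where 14.3% of all genes were higher. Of the 12, 3 passed the filter on low counts only through the high class. The 7 included *Phlda1* (log2 fold change 3.01), *Trib1* (2.20), *Btg2* (2.06), an antiproliferative gene, and *Mcl1* (1.75), an antiapoptotic Bcl-2 family gene. Among the AP-1 partners tested, 4 of 19, *Fosl2* was higher by edgeR (1.42, adjusted p = 0.0114) but not by DESeq2 and *Maf* lower (-1.20, adjusted p = 0.00496). Of the other Klf genes only *Klf3* (1.37) and 1 more could be tested, and *Klf3* was higher. Heat shock genes went mostly the other way, with *Dnajb1* higher (1.68) and *Hspe1* (-4.17), *Hsp90ab1* (-1.12) and *Hspa8* (-0.80) lower among 7 tested, and a median of -0.78. Of the list taken from the study's villus tip genes, which is no independent evidence here, *Creb3l3* (2.12) and *Cdh1* (1.30) were higher.

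**Figure D4:**
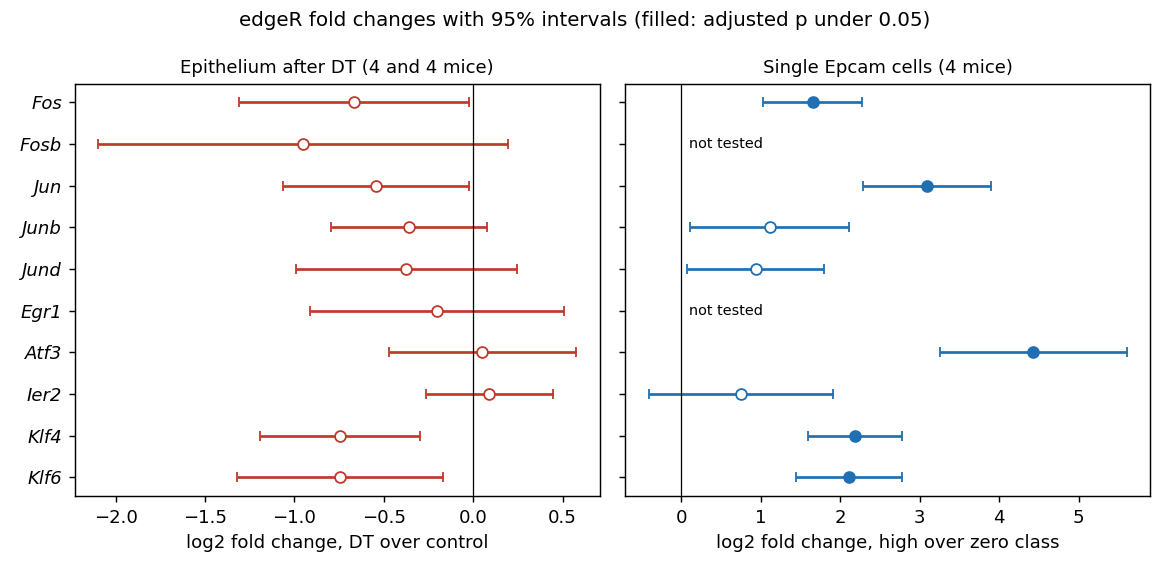
Log2 fold changes with 95% intervals (horizontal axes) of the members in bulk epithelium, DT over control (left), and in single *Epcam* cells, tip-gene high over zero class (right), with filled points for an edgeR adjusted p under 0.05. No point is filled on the left, and *Fos*, *Jun*, *Atf3*, *Klf4* and *Klf6* are filled on the right, where the size for *Atf3* rests on zero classes at 0 UMIs in mice E and H and depends on the fit.

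The bulk and single-cell experiments used different mice, and their values can be set side by side. Of the 5 members higher in the high class, *Klf4*, *Klf6*, *Fos* and *Jun* had a bulk fold change below 1, and *Atf3* did not. This was also the direction of most genes that were higher in the high class: 407 of the 464 tested in bulk (87.7%) had a bulk fold change below 1, against 54.3% of the 3002 single-cell genes tested in bulk. Among the 340 genes lower in the high class the share was 14.1%. The median bulk log2 fold change was -0.34 for the higher genes and 0.46 for the lower genes. At an unadjusted p under 0.05 the bulk level was lower for 33.0% of the higher genes, 1.18% of the lower genes and 11.9% of all 3002.

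In cells without *Epcam* the members ranked differently. Among 321 cells with a UMI of *Pdgfra*, *Dcn* or *Lum* but none of *Epcam*, *Fos* was at 7.58 UMIs per 1e5, *Jun* at 5.31, *Klf4* at 20.5, *Klf6* at 10.1 and *Atf3* at 0.505 (2 UMIs). Mice A and G held most of these cells, with *Klf4* at 11.7 and 24.8 and *Jund* at 16.3 and 19.6. For *Klf4* this level lies within the range over mice of zero-class epithelial cells and for *Klf6* just below it, while *Egr1* was at 5.42 and 10.7 in these cells of mice A and G, above the 0 to 2.45 of zero-class cells in mice A, E, G and H. In all *Epcam* cells of mouse F, which is not among those 4, *Egr1* was at 10.3. In the 37 cells with *Ptprc* and no *Epcam*, *Junb* was at 66.2 and 62.4 in mice B and C, from 11 UMIs each, above its highest level in the high class of any mouse. *Atf3* and *Fosb* were not seen there, in 38749 UMIs.

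In the LCM stroma no member passed the test between villus tip and crypt. From 4.97% to 44.7% of a sample's TPM lay on the enterocyte genes that were removed, no member is among those genes, and the part of enterocyte RNA in the members' levels was not tested. Of 13534 genes 0 (0%) passed an adjusted p of 0.05 between villus tip (5 mice) and crypt (3 mice) by limma on log2(ppm + 1), where ppm is the authors' TPM after removal of enterocyte genes and rescaling, and 3.24% had an unadjusted p under 0.05. *Ier2* was not listed under this symbol and *Fosb* lay below the filter. *Fos* was at 89.1, 0.0750 and 22.3 ppm in crypts of mice 1 to 3 and at 89.3, 19.6, 39.1, 7.00 and 93.3 ppm at the tip of mice 1 to 5, so the zones overlapped (log2 fold change 1.44, interval -1.26 to 4.13). In the 3 mice with both zones the tip was above the crypt in 3 of 3 for *Fos*, though nearly level in mouse 1. It was above in 0 of 3 for *Jund* and *Atf3*, but *Atf3* in mouse 2 was at 0 ppm in both zones. With the mouse as a block limma gave *Fos* 1.69 and *Jund* -1.58, again not past the threshold. *Klf4* spread even more, from 14.2 to 294 ppm in crypts and from 1.20 to 219 ppm at the tip. *Jund* was at 76.2, 118 and 81.9 ppm in crypts and at 46.5, 23.0, 59.4, 4.53 and 53.0 ppm at the tip, with every tip value below every crypt value, as for 1.80% of all genes (0.672% had every tip value above). Its log2 fold change was -1.65 (interval -3.29 to -0.02, limma adjusted p = 0.991), and as it is listed under 2 gene identifiers with the same values, its level is uncertain.

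**Figure D5:**
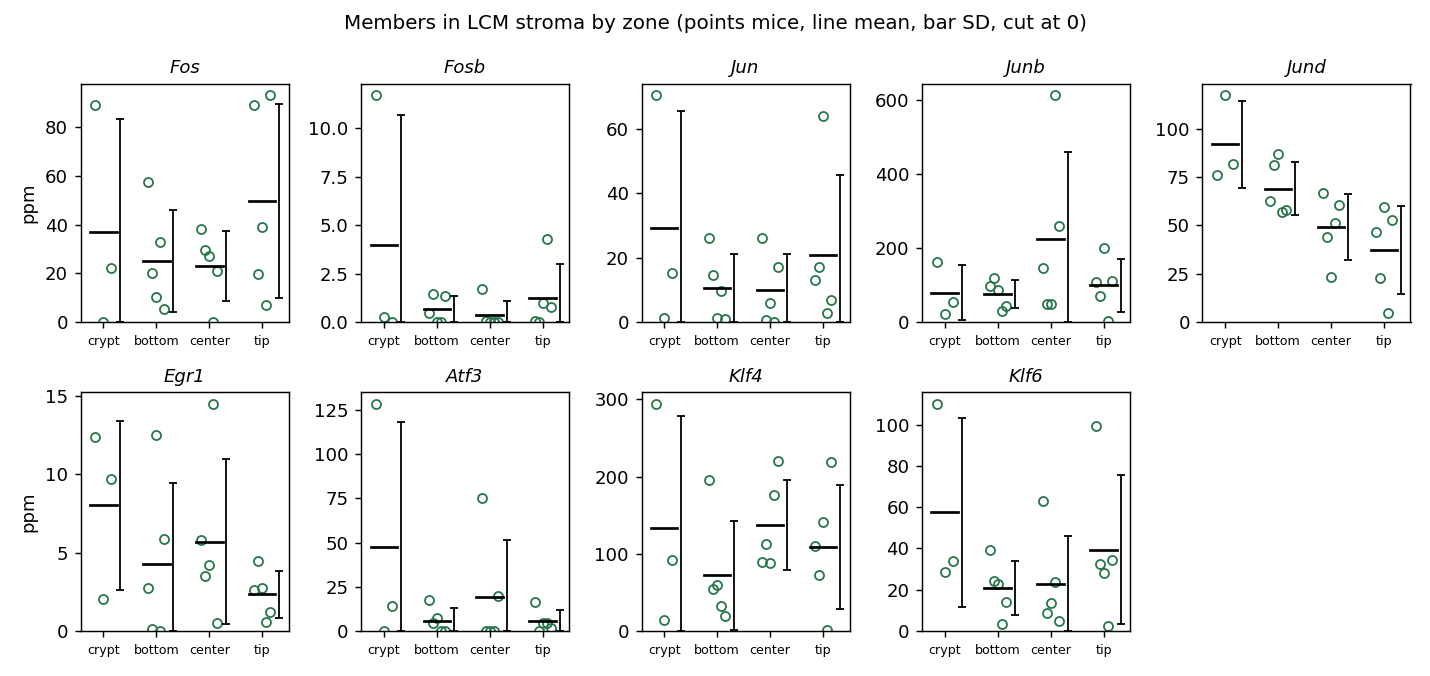
Levels in ppm (vertical axes, from 0) of the 9 members listed in the LCM stroma, in crypt (3 mice) and villus bottom, center and tip (5 mice each), with mice as points, the mean as a line and the SD as a bar. The mean of *Jund* steps down from 91.9 ppm in crypts to 37.3 ppm at the tip, and for the other members the ranges of crypt and tip overlap.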

How the data were processed

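The authors deposited UMI counts per gene for the bulk epithelium (mcSCRB-seq) and for the wells of single cells (MARS-seq), made with zUMIs on GRCm38 and not normalized (each a raw count), and TPM for the LCM stroma (SMART-seq), made with kallisto and sleuth on coding transcripts. Per the labels, bcl2fastq 2.15.0.4 was used. Batches of the bulk libraries were taken from the study. Bulk genes above 1e-05 of a library's UMIs in 2 or more libraries were tested with edgeR 4.0.16 (TMM, robust quasi-likelihood, batch and group, Benjamini-Hochberg). Single cells were summed per mouse and class, and genes that define the classes were left out. Genes passing filterByExpr with a minimum count of 5 were fitted with the mouse as a block. LCM sections were averaged per mouse and zone. The 378 enterocyte genes (among those holding 50% of control UMIs) were removed, and genes with a zone mean over 5 ppm were tested with limma 3.58.1 (pseudocount 1 ppm). DESeq2 1.42.0 was an alternative. Fits were tested on simulated data. Added after the data were seen were the single-cell fits on library totals alone, without CD45 plates, with mouse and gate as the block, and on cells of 200 to 8000 UMIs. Doublets were not called, and wells of the doublet gates stayed in. A plate of 352 wells that matches no sample was not used, and barcode lists were not used.

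The members and gene lists were chosen with earlier results of these data known. All members are named in each comparison, and of each list the genes past an adjusted p of 0.05, up to the 4 largest in each direction. In bulk, deviations from group means correlated at 0.610, 0.415, 0.658 and 0.585 between DT and control samples of the same number, over the 0.1 taken to mark pairs. The fit reported has no such block, and the fit with the number as a block is an alternative. The pairing follows the batches, since within batches the correlations were -0.164 and -0.0594. The same-mouse correlations in the single cells were 0.30, 0.12, 0.05 and 0.09. Confidence intervals are 95%. Sequences are from RefSeq, and of the 8 start sites used only those of *Fos* and *Jun* match the ends of the GENCODE genes.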

Additional observations from a re-analysis of the deposited data

Results flagged for a closer look

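Of 67 groups of 4 to 10 samples, 7 held a sample far from the others by Dixon's test at the 95% level, where chance flags about 1 in 20, and 6 of the 7 were in the LCM stroma. In that tissue mouse 1 was far above the others for *Atf3* at the villus center (75.1 ppm, the others 0 to 19.5) and at the tip (16.5 ppm, the others 0 to 4.55), for *Klf4* at the villus bottom (195 ppm, the others 19.8 to 59.0) and for *Fosb* at the center (1.70 ppm, the others up to 0.0458). *Jun* at the tip was highest in mouse 3 (64.0 ppm, the others 2.84 to 17.0), and *Fosb* at the tip in mouse 4 (4.30 ppm, the others up to 0.983). In the single cells *Egr1* was at 4.17 UMIs per 1e5 in the high class of mouse A and at 0 to 0.637 in the other 3 mice, from 11 UMIs and 1 UMI in all.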

How the results depend on the processing

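In bulk, 32 genes passed. Without the batch term 1 gene passed, with the replicate block 3, by DESeq2 159, with no filter 635, in batch a alone 0 and in batch b alone 5. Leaving out 1 mouse gave 3 (without control replicate 1) to 41 (without DT replicate 1). No member passed with the replicate block (*Klf4* -0.75, *Klf6* -0.72 on the log2 scale), and *Klf4* passed by DESeq2 (adjusted p = 0.0466) and with no filter (0.0306), *Klf6* with no filter (0.0344). *Egr1* turned to 0.31 in batch b alone, *Atf3* to -0.10 and *Ier2* to -0.019 in batch a alone. Leaving out 1 mouse gave -0.43 to 0.21 for *Egr1*, -0.20 to 0.24 for *Atf3* and -0.0066 to 0.16 for *Ier2*. The interaction called 43 genes with no filter, 9 by DESeq2 and 0 to 0 with a replicate left out, where the members' values ran from -0.33 to 1.47 (*Fos*), -0.87 to 2.62 (*Fosb*), -0.19 to 0.83 (*Junb*), -0.12 to 1.46 (*Jund*), -0.056 to 0.55 (*Atf3*) and -0.55 to 0.54 (*Klf6*).

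In the single cells 1049 genes passed, against 943 with no replicate block, 282 with cells thinned to 400 UMIs and 58 with cells from 200 UMIs and no upper limit. The count was 415 without doublet gates and 391 on PDGFRa singlet gates, where only mice A and G were fitted. Leaving out 1 mouse gave 434 (without mouse A) to 1272 (without mouse H), and 594 without mouse G. With cells from 200 UMIs and no upper limit *Fos*, *Jun*, *Klf4* and *Klf6* missed the threshold (edgeR adjusted p = 0.435, 0.0995, 0.260 and 0.284). In the LCM stroma 2 genes passed with no filter and 0 with a mouse left out. *Jun* turned to 0.22 with the mouse as a replicate block, and leaving out 1 mouse gave -0.17 to 2.49 for *Fos*, -1.41 to 1.14 for *Jun*, -0.76 to 0.98 for *Junb* and -1.66 to 0.76 for *Klf4*. The causes were not tested. Depth left *Fosb* and *Egr1* untested in the single cells.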
